A study of Mus musculus with 6 samples.

Results

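The genes described here are 7 cytokines that skin cells make for the lymphoid and myeloid cells around them: Il15, Il7, Il34, Il33, Il18, Tslp and Csf1. They were chosen by name, and each was found as 1 gene among the 32285 features of all 6 count matrices. Whole skin without its hypodermis was taken from female mice of 17 to 18 weeks in 3 groups: UP_Del mice with alopecia, UP_Del mice without alopecia, and untreated C57BL/6 wild-type mice. UP_Del mice carry a germline deletion of an enhancer that lies upstream of Il2ra, the gene of the interleukin-2 receptor alpha chain, and wild-type mice do not carry it. The skin was digested with enzymes, and the live cells were parted by flow cytometry into leukocytes, which carry CD45, and keratinocytes and stroma, which do not. Each group and sort gave 1 library of 5′ single-cell RNA sequencing, and the labels do not say how many mice a library holds.

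Interleukin-15 is held by its own receptor chain, Il15ra, on the surface of the cell that makes it and is shown from there to the Il2rb and Il2rg chains of natural killer cells, CD8 T cells and epidermal gamma delta T cells. Interleukin-7 signals through Il7r to T cells and innate lymphoid cells, and Tslp, an epithelial cytokine of allergic inflammation, uses Il7r together with Crlf2. Interleukin-33 is stored in the nucleus, is released on damage and acts through Il1rl1 and Il1rap on group 2 innate lymphoid cells, regulatory T cells and mast cells. Interleukin-18 is cleaved by inflammasomes, acts through Il18r1 and Il18rap, and is trapped by the soluble decoy Il18bp. Csf1 and interleukin-34 are alternative ligands of Csf1r, and in the mouse epidermis interleukin-34 from keratinocytes maintains Langerhans cells.

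The 6 libraries held 3340 to 16751 barcodes, and 3234 to 14447 cells were left after filtering, with median depths of 4082 to 5658 UMIs (unique molecular identifiers, each counting 1 captured RNA molecule). The cell filter removed 30.4%, 7.56% and 26.7% of barcodes from the alopecia, no-alopecia and wild-type CD45-negative libraries, and 1.86% to 4.20% from the CD45-positive ones. Libraries shared 24 to 228 barcodes, 0.719% to 2.58% of the smaller library of each pair. Levels are UMIs of a gene scaled to 1000000 UMIs of a cell class (CPM), with exact Poisson intervals of 95%, and differences are log2 ratios with exact conditional binomial intervals. Ptprc, the gene of CD45, had 657 to 790 CPM among the sorted leukocytes and at most 1.06 CPM among the other cells. Il2ra had 134, 150 and 239 CPM among the leukocytes of alopecia, no alopecia and wild type. All intervals cover counting error only. With 1 library per group and sort, no difference has a replicate check and no p-value is given. A ratio past 1.5-fold either way was counted as past the line. Cell classes were named from marker lists that contain none of these genes, and the clustering did not use them. All markers of a class stood at 20 CPM or more in 72 of the 93 pairs of a named class and a library, and the lowest counts were 7 of 11 in hair shaft cells, 6 of 8 in group 2 innate lymphoid cells and 6 of 8 in the inner root sheath.

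RefSeq's promoter table for build GRCm38.p6 held 4 start sites for 3 of the 7 genes (Csf1, Il18 and Il33). The 250 bases before both Il33 starts and before the Csf1 start are shown because both genes differed between groups in several classes. Another reason is that a gene count from 5′ libraries adds the starts together. Capitals mark matches, on either strand, to the TATA box TATAAA, the AP-1 site TGANTCA, the AP-2 site GCCNNNGGC or the NF-kappa-B site (GGG, any 2 bases, TTTCC).
Il33, first start, chr19:29924863-29925112, plus strand: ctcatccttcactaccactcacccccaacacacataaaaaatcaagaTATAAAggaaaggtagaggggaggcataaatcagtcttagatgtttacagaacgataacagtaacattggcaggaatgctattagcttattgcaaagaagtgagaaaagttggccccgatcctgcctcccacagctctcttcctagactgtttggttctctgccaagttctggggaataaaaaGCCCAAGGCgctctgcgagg
Il33, second start, chr19:29945540-29945789, plus strand: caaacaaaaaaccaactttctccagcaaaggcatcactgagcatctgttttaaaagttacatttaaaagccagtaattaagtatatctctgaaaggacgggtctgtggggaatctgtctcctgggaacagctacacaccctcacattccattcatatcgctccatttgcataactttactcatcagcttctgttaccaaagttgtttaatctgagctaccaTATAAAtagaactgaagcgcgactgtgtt
Csf1, chr3:107760470-107760719, minus strand: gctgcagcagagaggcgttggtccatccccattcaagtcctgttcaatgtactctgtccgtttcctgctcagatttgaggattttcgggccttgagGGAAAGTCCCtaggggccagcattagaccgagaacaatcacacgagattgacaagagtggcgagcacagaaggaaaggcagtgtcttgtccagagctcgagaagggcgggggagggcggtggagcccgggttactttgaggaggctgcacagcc
The first Il33 start had TATAAA 203 bases and an AP-2 match 20 bases before it, and the second had TATAAA 29 bases before it. The Csf1 promoter had the NF-kappa-B letters on the opposite strand, 154 bases before the start, and the Il18 promoter had the TATA letters 175 bases before its start. None of these matches overlapped another. Of 32851 promoters of the same length, 12.4% held the TATA letters, 6.75% the AP-1 letters, 13.7% the AP-2 letters and 1.41% the NF-kappa-B letters.

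The 7 cytokines came from different cells. Among named classes of at least 50 cells in each library, Il34 and Il33 were highest in keratinocytes and Il7 in lymphatic endothelium. Among the same classes Il18 was highest in Langerhans cells, and Csf1 in mast cells and fibroblasts. For Il33 an unnamed Apod stroma class had a higher mean, at 91.9 CPM against 85.8 CPM in basal keratinocytes. Tslp was highest in basal keratinocytes and macrophages, whose library values overlapped. Macrophages stood above basal keratinocytes in both UP_Del libraries. The basal value was higher in wild type only, where it came mostly from 1 cell. Il15 had means of 26.4 to 43.5 CPM in group 2 innate lymphoid cells, mast cells, macrophages, monocytes, upper follicle keratinocytes and blood endothelium. Migratory dendritic cells had more, at 78.8 CPM, but from as few as 10 cells in a library. Type 2 conventional dendritic cells had 23.7 CPM and Langerhans cells 13.9 CPM. In the class with the highest mean level among named classes of at least 100 cells in each library, 1 of 7 was past the line upward (Il7) and 1 downward (Tslp) in alopecia against wild type. The same 2 genes in the same directions were past it in no alopecia against wild type. Alopecia against no alopecia had 0 of 7 upward and 2 downward (Tslp and Csf1). In the classes of these calls, 7.68% to 14.3% of all genes were past the line in the same direction, so counts of 1 or 2 of 7 lie near the background. The Tslp values against wild type rest on 1 wild-type cell, described with that gene.

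**Figure D1:**
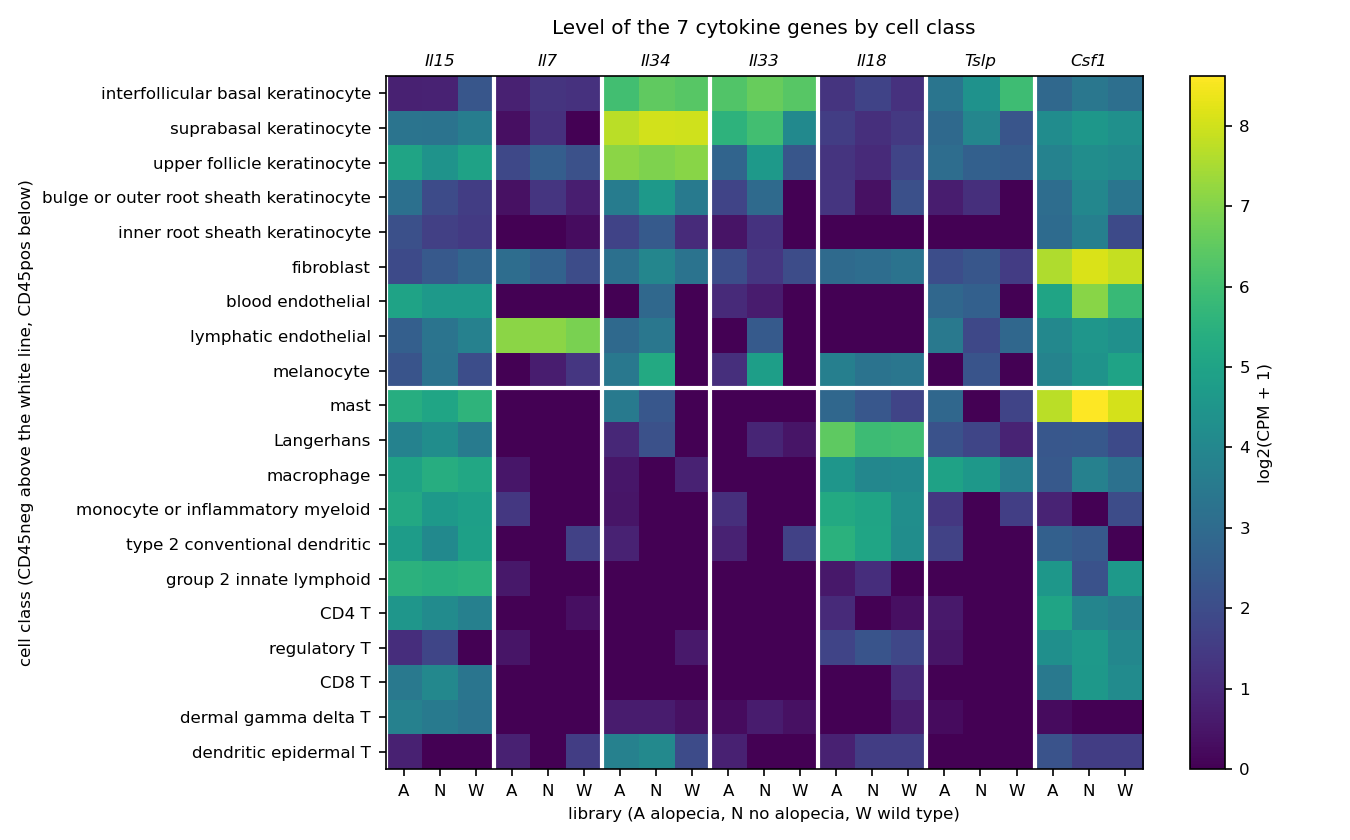
Level of each cytokine gene, as log2(CPM + 1), in the 20 named cell classes of at least 50 cells in each library, with 1 column per library (A alopecia, N no alopecia, W wild type). Il34 and Il33 are bright in keratinocytes, Tslp in basal keratinocytes and macrophages, Il7 in lymphatic endothelium, Il18 in Langerhans cells and Csf1 in fibroblasts and mast cells.

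Over all named classes in which the 2 libraries together had at least 20 UMIs of the gene, the 7 genes gave 36 CD45-negative ratios of alopecia against wild type, of which 8 were past the line upward and 6 downward, with a median of -0.10. Of all genes tested the same way in those classes, 9.84% were past it upward and 8.41% downward. No alopecia against wild type gave 51 such ratios, 19 upward and 5 downward, median 0.23, where all genes gave 13% and 12.3%. Alopecia against no alopecia gave 53, 6 upward and 22 downward, median -0.44, where all genes gave 12% and 11.6%. Both medians thus put the no-alopecia CD45-negative library above the other 2. Keratinocyte RNA was also higher in melanocytes of that library. The 7 basal keratinocyte markers summed to 2760, 7471 and 989 CPM in melanocytes of the alopecia, no-alopecia and wild-type libraries, and the 9 suprabasal markers to 1861, 3555 and 807 CPM. In blood endothelium the basal markers summed to 1868, 2126 and 3098 CPM. The part of this RNA in the cytokine ratios was not tested, and ratios less the melanocyte level of each library are given where they move a result. Such ratios depend on the class taken. Il33, for one, reached 27.8 CPM in melanocytes but at most 1.06 CPM in blood endothelium.

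In the CD45-positive libraries, alopecia against wild type gave 27 ratios, 7 upward and 2 downward, with a median of 0.32, where all genes gave 11.3% and 9.38%. No alopecia against wild type gave 21, 6 upward and 2 downward, median 0.25, where all genes gave 9.74% and 13.4%. Alopecia against no alopecia gave 22, 4 upward and 1 downward, median 0.33, where all genes gave 15.6% and 9.09%. The 3 comparisons share libraries, and the background of all genes was not matched for depth.

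Il15 (chromosome 8, 82331632 to 82403222, minus strand, GRCm38) had its highest level in a named class of at least 100 cells in group 2 innate lymphoid cells. It stood there at 45.05 (36.6 to 54.8), 41.1 (28.6 to 57.2) and 44.4 (34.7 to 56.04) CPM in the alopecia, no-alopecia and wild-type libraries, from 99, 35 and 71 UMIs. With classes called from the marker UMIs of each cell, the innate lymphoid cells had 26.8, 23.98 and 27.5 CPM, under mast cells at 35.8, 29.5 and 65.3 CPM and upper follicle keratinocytes at 45.1, 36.2 and 41.6 CPM, so the first place rests on the clusters. From the clusters the 3 values were close, with a log2 ratio of 0.02 (-0.43 to 0.48) for alopecia against wild type and -0.11 (-0.74 to 0.49) for no alopecia against wild type. Of these cells 16.8%, 19.4% and 17.5% had an Il15 UMI, against 4.79%, 4.40% and 3.29% of dermal gamma delta T cells at similar depths (medians of 4642, 5410 and 4800 against 4022, 5128 and 4465 UMIs). After thinning to 1000 UMIs the shares in the innate lymphoid cells were 4.77%, 2.88% and 3.68%, against 1.69%, 1.19% and 0.693%. Of the innate lymphoid cells 35.1%, 38.1% and 29.8% carried at least 3 UMIs of T-cell receptor complex genes.

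The next classes in the order overlapped over their libraries down to CD4 T cells. Mast cells had 40.6, 32.3 and 47.4 CPM, macrophages 30.5, 40.3 and 35 CPM, monocytes 35.5, 23.9 and 28.2 CPM and blood endothelium 30.8, 24.6 and 23.8 CPM of Il15 in the alopecia, no-alopecia and wild-type libraries. No ratio of Il15 in these 4 classes was past the line, but with classes from marker UMIs mast cells were at -0.87 for alopecia and -1.15 for no alopecia against wild type, and macrophages at 0.60 for no alopecia against wild type. Mast cells also held RNA of other cells. The 7 Langerhans markers summed to 7726, 8136 and 5202 CPM in mast cells, against 40700, 35530 and 33740 CPM in Langerhans cells. The part of such RNA in the mast-cell Il15 levels was not tested. Migratory dendritic cells, which carry antigen to lymph nodes, had more Il15 than these classes, at 92.4, 66.8 and 77.1 CPM, but from 73, 10 and 45 cells.

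Among keratinocytes, Il15 was highest in the upper follicle, the zone around the follicle opening. Its level there was 32.0 (27.8 to 36.5), 20.7 (18.6 to 23.02) and 30.01 (25.4 to 35.2) CPM in alopecia, no alopecia and wild type. The alopecia library thus lay past the line over no alopecia, at 0.63 (0.37 to 0.88), where 7.47% of genes did, and close to wild type, at 0.09 (-0.21 to 0.40). The class held 4 clusters with unlike levels. In cluster 3, led by Cst6, Defb6 and Krt79, Il15 stood at 49.5, 55.0 and 53.5 CPM, so that the groups were close and no alopecia was highest. In cluster 11, led by Krt79, Klk7 and Sprr1a, it stood at 44.2, 28.9 and 29.4 CPM. Clusters 9 and 15 had 3.3 to 6.7 CPM in every library, and made up 313, 1185 and 207 of the 952, 2492 and 718 cells. With classes called from the marker UMIs of each cell, the ratio of alopecia to no alopecia was 0.32, below the line. Bulge or outer root sheath cells had less Il15, at 8.065, 2.88 and 1.98 CPM in alopecia, no alopecia and wild type. These rest on 27, 19 and 3 UMIs. Alopecia was past the line there over wild type, at 2.03 (0.33 to 4.39), where 12.6% of genes were. Against no alopecia it was 1.49 (0.59 to 2.42), where 15.9% were. Over 18 named classes, alopecia against wild type put Il15 past the line upward in 4 and downward in 1. All genes gave 9.84% to 11.3% upward and 8.41% to 9.38% downward.

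Il15 in CD4 T cells was 22.2 (16.05 to 29.9), 16.8 (8.96 to 28.8) and 12.6 (9.14 to 16.9) CPM in alopecia, no alopecia and wild type. The alopecia level lay past the line over wild type, at 0.82 (0.18 to 1.46) from 43 against 44 UMIs, where 8.82% of genes in these cells were. All alternatives run gave 0.62 to 0.85, past the line too.

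Il7 (chromosome 3, 7569994 to 7613760, minus strand) was a gene of lymphatic endothelium, the lining of the vessels that drain lymphocytes from skin. It reached 140 (111 to 173), 137 (116 to 160) and 118 (83.1 to 163) CPM there in alopecia, no alopecia and wild type, from 139, 352 and 77 cells. The intervals of the 3 libraries overlapped, and the ratios were 0.24 (-0.33 to 0.84) for alopecia against wild type, 0.21 (-0.32 to 0.77) for no alopecia against wild type and 0.03 (-0.37 to 0.43) for alopecia against no alopecia. An Il7 UMI was seen in 38.8%, 28.7% and 35.1% of these cells, at median depths of 3709, 2954 and 4000 UMIs. In blood endothelium, at 3193, 2916 and 3366 UMIs, it was seen in 0 of 259, 0 of 533 and 0 of 196 cells. Lymphatic endothelium alone held 51.9%, 37.8% and 48.7% of all Il7 UMIs of the CD45-negative libraries.

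Il7 in fibroblasts, the highest class with at least 100 cells in each library, did not overlap it. They had 7.41 (5.04 to 10.5), 5.50 (3.96 to 7.43) and 3.02 (1.30 to 5.95) CPM of Il7 in alopecia, no alopecia and wild type. The ratio of alopecia to wild type was past the line, at 1.30 (0.14 to 2.63) from 31 against 8 UMIs, where 8.88% of genes were, and no alopecia over wild type, at 0.86 (-0.24 to 2.17), where 12% were. The order of the groups was the same in fibroblast clusters 0, 4 and 18, with 4.82, 4.43 and 3.17 CPM in the first, 6.29, 4.43 and 1.98 CPM in the second and 16.5, 10.6 and 5.31 CPM in the third, though the wild-type values rest on 4, 2 and 2 UMIs. Sebaceous cells, which make skin lipid, had 25.2, 32.97 and 38.4 CPM from 18, 64 and 7 cells.

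**Figure D2:**
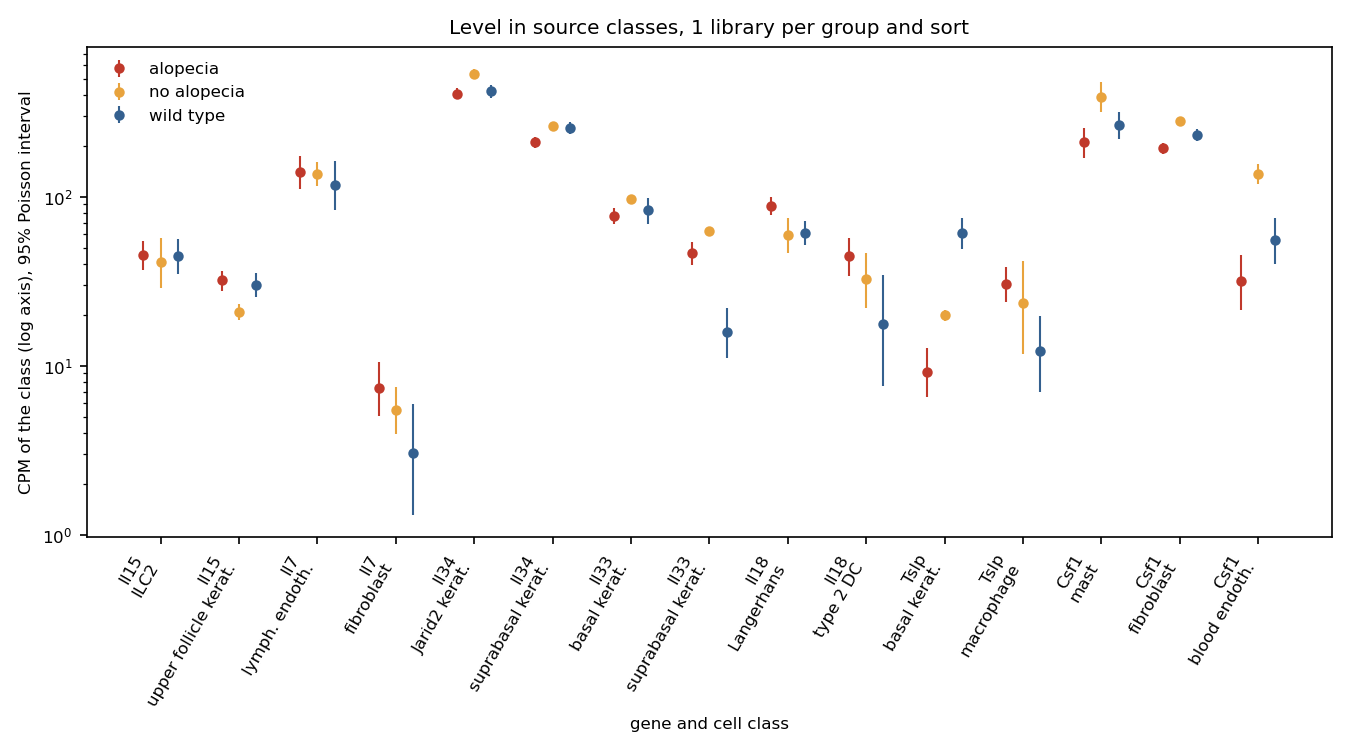
CPM of a cytokine gene, on a log axis with exact Poisson intervals of 95%, in the main classes that express it, with 1 point per library. Il7 in lymphatic endothelium (118 to 140) sits far above Il7 in fibroblasts (3.02 to 7.41), Il33 in suprabasal keratinocytes is lowest in wild type, and Csf1 in blood endothelium is highest without alopecia.

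Il34 (chromosome 8, 110741829 to 110805924, minus strand) was a gene of the outer epidermis. In suprabasal keratinocytes, the differentiating layers above the basement membrane, it had 210 (195 to 226), 262 (255 to 269) and 255 (235 to 276) CPM in alopecia, no alopecia and wild type. Its level was lower in alopecia, by less than the line, at -0.28 (-0.44 to -0.12) against wild type and -0.32 (-0.43 to -0.21) against no alopecia, while no alopecia against wild type was 0.04 (-0.08 to 0.16). A UMI of Il34 was seen in 82.8%, 83.7% and 79.0% of suprabasal cells, and after thinning to 1000 UMIs in 19.6%, 24.4% and 20.9%. In blood endothelium 0, 6 and 0 cells had one, whereas melanocytes stood at 9.81, 36.4 and 0 CPM of Il34. Less the melanocyte level, alopecia against no alopecia was -0.17 and no alopecia against wild type was -0.18.

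The same order of groups held in the finer cells of the epidermis. Suprabasal cluster 2, led by Krt1 and Krt10, had 243, 310 and 268 CPM of Il34 and cluster 16, led by Krt16 and Slc6a14, had 123, 187 and 177 CPM in alopecia, no alopecia and wild type. Basal keratinocytes had 64.0, 90.3 and 81.7 CPM, a ratio of -0.35 (-0.67 to -0.03) for alopecia against wild type. In basal clusters 1, 10 and 12 alopecia was also the lowest of the 3 groups. Epidermal keratinocytes that fell into the CD45-positive libraries, which are separate libraries of the same groups, had 127, 184 and 164 CPM and a ratio of -0.37 (-0.59 to -0.15) for alopecia against wild type. None of the ratios of whole classes was past 1.5-fold. In cluster 16 the alopecia value lay under the no-alopecia value by more than 1.5-fold. The suprabasal ratio of alopecia to wild type was -0.08 with classes from marker UMIs.

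Upper follicle keratinocytes had 137, 121 and 135 CPM of Il34, which lay below the suprabasal and above the basal values in every library. An unnamed keratinocyte class led by long genes such as Jarid2 was higher than any named class, at 407, 530 and 421 CPM. Outside keratinocytes, Il34 was high in mural and smooth muscle cells, the contractile wall of vessels and hair muscles, at 264 (199 to 343), 271 (228 to 320) and 140 (81.4 to 224) CPM from 35, 165 and 27 cells. There alopecia was past the line over wild type, at 0.92 (0.11 to 1.80), where 21.4% of genes were, and no alopecia at 0.96 (0.23 to 1.78), where 25.3% were. With classes from marker UMIs alopecia against wild type was 0.55, under the line, and the other alternatives run gave 0.86 to 1.18.

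Il33 (chromosome 19, 29925114 to 29960718, plus strand) was highest, among named classes of at least 100 cells in each library, in interfollicular basal keratinocytes, the layer that holds the epidermal stem cells. Its level there was 77.1 (68.9 to 86.1), 97.2 (93.7 to 101) and 83.0 (69.2 to 98.8) CPM in alopecia, no alopecia and wild type. Alopecia and wild type overlapped, at -0.11 (-0.41 to 0.20), and no alopecia against wild type was 0.23 (-0.03 to 0.50). The second ratio turned to -0.26 less the melanocyte level and was 0.73, past the line, with no cell filter. Alopecia against no alopecia was -0.33, and turned to 0.13 less the melanocyte level. Of basal cells 43.0%, 47.2% and 43.2% had an Il33 UMI, against 0.649%, 4.31% and 0% of melanocytes, which were less deep (medians of 3170, 1914 and 2394 against 11150, 9670 and 11990 UMIs). In blood endothelium 1, 1 and 0 cells had one, so the ratios less the melanocyte level rest on the class chosen.

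In suprabasal keratinocytes the groups were further apart. Il33 had 46.4 (39.6 to 54.0), 63.0 (59.6 to 66.6) and 15.8 (11.2 to 21.8) CPM there in alopecia, no alopecia and wild type, from 166, 1283 and 37 UMIs. Alopecia was past the line over wild type, at 1.55 (1.03 to 2.10), where 5.93% of genes were, and so was no alopecia, at 1.99 (1.52 to 2.50), where 8.69% were. In alopecia 1 cell held 48 of the 166 UMIs. Without the highest cell of each library the ratios were 1.14 (0.58 to 1.74) and 1.96 (1.47 to 2.50), and less the melanocyte level they were 1.51 and 1.15. The share of cells with a UMI was nearly alike in alopecia and wild type, at 14.6%, 22% and 13.8% in alopecia, no alopecia and wild type, and after thinning to 1000 UMIs at 2.22% (0.820 to 4.77), 3.44% (2.65 to 4.38) and 1.23% (0.149 to 4.36), Clopper-Pearson intervals of 95%.

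The 2 suprabasal clusters differed in Il33, and the groups held them in unlike shares. Cluster 16, whose leading genes Krt16, Slc6a14 and Sprr1b are known from activated and wounded epidermis, had 147 (from 145 UMIs), 127 (from 1007 UMIs) and 34.2 CPM (from 11 UMIs) of Il33 in alopecia, no alopecia and wild type, in 58 of 274, 612 of 1873 and 21 of 167 cells of the class. The part of this make-up in the class ratios was not tested. The alopecia value includes the 48 UMIs of the highest cell. In cluster 2, led by Krt1 and Krt10, Il33 was at 8.09, 22.2 and 12.9 CPM, so that alopecia was below wild type there and no alopecia above it. Epidermal keratinocytes of the CD45-positive libraries gave 50.6 (42.5 to 59.7), 79.1 (65.3 to 94.9) and 27.9 (20.97 to 36.4) CPM from 208, 91 and 126 cells. Their ratios to wild type were 0.86 (0.39 to 1.34) for alopecia and 1.502 (1.02 to 2.00) for no alopecia. Basal clusters 1, 10 and 12 had 87.8, 76.2 and 63.2 CPM in alopecia, 93.7, 129 and 85.4 CPM in no alopecia and 74.2, 121 and 66.2 CPM in wild type.

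**Figure D3:**
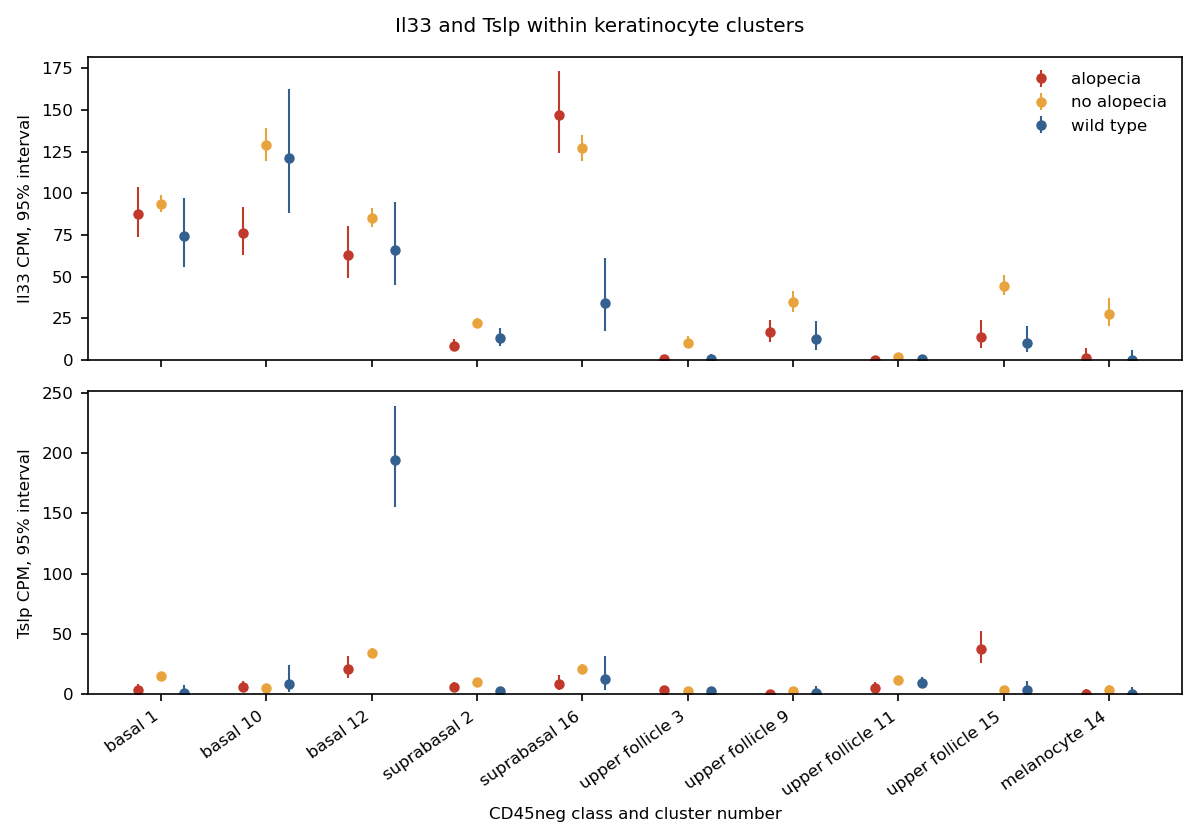
CPM of Il33 (upper panel) and Tslp (lower panel) with exact Poisson intervals of 95% in each keratinocyte cluster and in melanocytes of the CD45-negative libraries. For Il33, suprabasal cluster 16 is high in alopecia (147) and no alopecia (127) and low in wild type (34.2), and melanocytes stand at 27.8 in no alopecia, with 1.23 in alopecia and 0 in wild type. The high Tslp point of wild type in basal cluster 12 (194) comes mostly from 1 cell.

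Upper follicle keratinocytes had 5.89, 23.99 and 3.95 CPM of Il33 in alopecia, no alopecia and wild type. The no-alopecia value was past the line over wild type, at 2.60 (1.96 to 3.33), where 9.78% of genes were, but melanocytes of that library stood at 27.8 CPM, above it. In blood endothelium Il33 reached at most 1.06 CPM in any library. The part of RNA from other cells in the upper follicle value was not tested. An unnamed Apod stroma class, at 39.0, 130 and 107 CPM, and sebaceous cells, at 32.4, 107 and 115 CPM, were lower in alopecia, from 7, 36 and 14 and from 9, 94 and 9 UMIs.

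At the level of whole CD45-negative libraries, Il33 had 17.0, 51.2 and 11.8 CPM in alopecia, no alopecia and wild type. With each class weighted alike in the 3 libraries, by its mean share, these became 22.1, 34.0 and 20.2 CPM. With the class weights of the wild-type library they became 13.5, 23.3 and 11.7 CPM, so the levels depend on the weights. Basal keratinocytes made up 363 of 4817, 2972 of 14447 and 132 of 3293 cells, and the 3 libraries lay closer together once the classes were weighted alike.

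Il18 (chromosome 9, 50554827 to 50581840, plus strand) was highest in Langerhans cells, the resident antigen-presenting cells of the epidermis. It had 88.3 (78.2 to 99.3), 59.6 (46.6 to 75.2) and 61.2 (51.9 to 71.8) CPM there in alopecia, no alopecia and wild type. Alopecia lay above wild type by 0.53 (0.24 to 0.82) and above no alopecia by 0.57 (0.19 to 0.96), both under the 1.5-fold line, and no alopecia against wild type was -0.04 (-0.47 to 0.38). Of the Langerhans cells 50.3%, 35.2% and 39.2% had an Il18 UMI, at median depths of 7968, 7958 and 8876 UMIs, against 0.366%, 0% and 0.121% of CD4 T cells at 3296, 4120 and 3795 UMIs. Of the Langerhans cells 55.6%, 66.4% and 67.2% carried at least 3 T-cell receptor UMIs, and the part of this RNA in the ratios was not tested beyond leaving such cells out.

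The clusters of Langerhans cells were not alike. Il18 stood at 71.7, 42.5 and 53.9 CPM in myeloid cluster 3, at 81.4, 116 and 79.9 CPM in cluster 12 and at 186, 195 and 131 CPM in cluster 17. The last held 62, 5 and 17 cells, and alopecia was highest in cluster 3 only. The order of the groups thus differed between the clusters.

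The other named antigen-presenting classes had less Il18 than Langerhans cells in each library. An unnamed myeloid class with Klra17 among its leading genes had 47.1 to 73.9 CPM over the 3 libraries, overlapping Langerhans cells, from 196, 90 and 64 cells. Type 2 conventional dendritic cells had 44.3 (33.8 to 57.2), 32.4 (21.9 to 46.3) and 17.5 (7.57 to 34.6) CPM in alopecia, no alopecia and wild type. Against wild type, alopecia was past the line at 1.34 (0.27 to 2.62) from 59 against 8 UMIs, where 14.2% of genes were. Monocytes and inflammatory myeloid cells had 36.7 (29.5 to 45.2), 31.8 (18.2 to 51.7) and 18.1 (10.8 to 28.7) CPM, a ratio of 1.02 (0.27 to 1.84) for alopecia against wild type, where 14.1% of genes were past the line. No alopecia was past the line over wild type too, at 0.89 (-0.27 to 2.22) in the dendritic cells, where 13.2% of genes were, and at 0.81 (-0.26 to 1.87) in monocytes, where 7.85% were. At least 3 T-cell receptor UMIs were carried by 20.8%, 30.8% and 34.6% of the dendritic cells, and without them the ratio of no alopecia to wild type was -0.03. Such cells were 14.3%, 15.8% and 21.8% of the monocytes, whose ratio turned to -0.28 with classes from marker UMIs. Monocyte clusters 5, 8 and 13 held 273, 160 and 99 cells in alopecia, 35, 47 and 13 in no alopecia and 60, 101 and 36 in wild type. Il18 was at 51.1, 55.6 and 19.6 CPM in cluster 5, at 20.5, 18.2 and 11.3 CPM in cluster 8 and at 30.2, 35.6 and 30.8 CPM in cluster 13 of alopecia, no alopecia and wild type. The part of this make-up in the class ratios was not tested. Macrophages had 22.2, 14.8 and 15.98 CPM of Il18. Type 1 conventional dendritic cells had 52.95, 42.2 and 35.5 CPM from 79, 32 and 55 cells. Basal, suprabasal and upper follicle keratinocytes had at most 2.37 CPM.

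**Figure D4:**
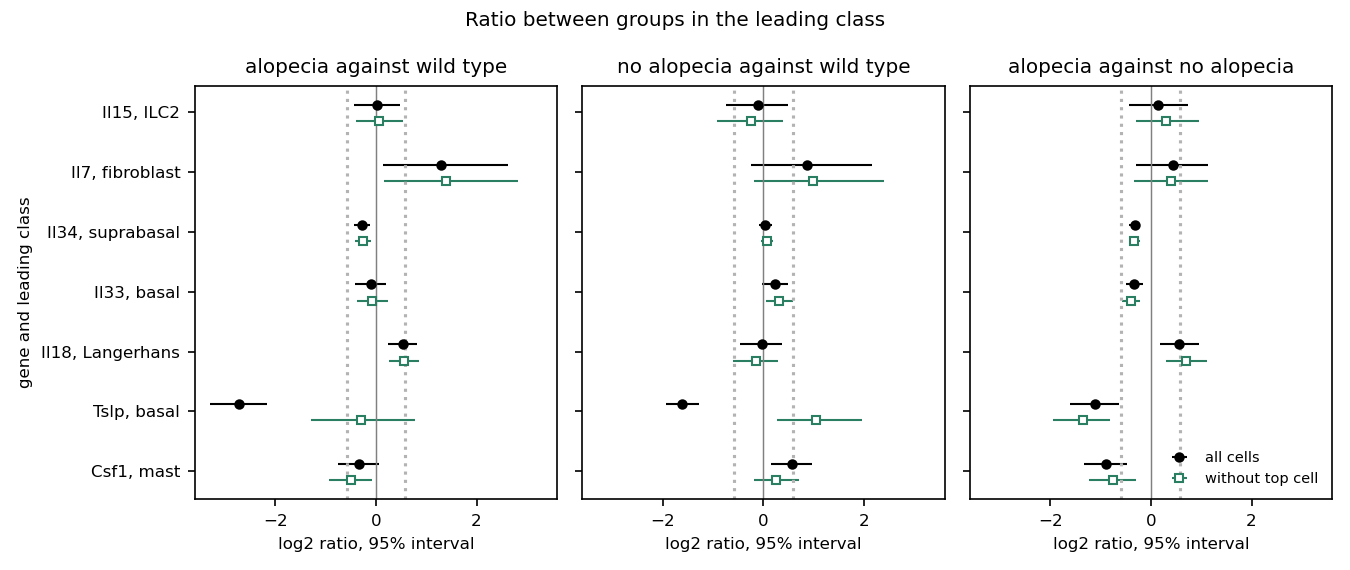
Log2 ratio with its 95% interval for each cytokine gene in its leading class, in the 3 comparisons of groups, from all cells (filled) and without the cell holding most UMIs of the gene in each library (open), with dotted lines at 1.5-fold. Without that cell, Tslp in basal keratinocytes moves to -0.30 in alopecia against wild type and to 1.05 in no alopecia against wild type, while every other open point keeps the sign of its filled point.

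Tslp (chromosome 18, 32815383 to 32819797, plus strand) was low and uneven. In basal keratinocytes it had 9.22 (6.52 to 12.6), 19.8 (18.3 to 21.5) and 60.6 (48.9 to 74.4) CPM in alopecia, no alopecia and wild type. The ratios to wild type were -2.72 (-3.30 to -2.16) for alopecia, where 7.71% of genes were past the line downward, and -1.61 (-1.93 to -1.28) for no alopecia, where 14.3% were. In wild type, however, 1 cell held 79 of the 92 UMIs. Without the highest cell of each library 29, 549 and 13 UMIs were left, and the ratios became -0.30 (-1.29 to 0.77) for alopecia and 1.05 (0.26 to 1.97) for no alopecia, so that the direction of the second turned. Alopecia against no alopecia was -1.11 (-1.62 to -0.63) with all cells, where 7.68% of genes were past the line downward, and -1.35 (-1.94 to -0.81) without the highest cells.

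A Tslp UMI was seen in 6.34%, 10.2% and 6.82% of basal cells in alopecia, no alopecia and wild type, against 0%, 0.957% and 0% of melanocytes. Tslp lay mostly in basal cluster 12, led by Ifi202b, Ptgs2 and Serpinb2, at 21.4, 34.3 and 194 CPM, and the single wild-type cell raised the last of these. Suprabasal keratinocytes had 6.70, 14.6 and 3.85 CPM. There no alopecia lay past the line over wild type, at 1.92 (0.98 to 3.06) from 297 against 9 UMIs, where 8.69% of genes were, and was 1.498 less the melanocyte level. Epidermal keratinocytes of the CD45-positive libraries had 4.76, 11.7 and 13.4 CPM, the wild-type value with 15 of 26 UMIs in 1 cell. In the upper follicle, 28 of the 51 alopecia UMIs came from 1 cell.

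Macrophages held Tslp too, at a level above that of basal keratinocytes in both UP_Del libraries. In wild type the basal value was higher, but it came mostly from 1 cell. The level of Tslp in macrophages was 30.5 (23.8 to 38.6), 23.3 (11.7 to 41.8) and 12.2 (6.96 to 19.8) CPM in alopecia, no alopecia and wild type. These values rest on 70, 11 and 16 UMIs. Alopecia was past the line over wild type, at 1.33 (0.53 to 2.21), where 15.6% of genes were, and the alternatives run gave 0.75 to 1.46. No alopecia against wild type was 0.94 (-0.31 to 2.14), where 9.85% were past the line, and -0.16 without cells that carried at least 3 T-cell receptor UMIs. Most of it lay in myeloid cluster 2, led by Ccl8, Cd209f and Pf4, where alopecia had 43.6, no alopecia 28.1 and wild type 18.02 CPM. At least 3 T-cell receptor UMIs were carried by 39.2%, 43.9% and 61.0% of macrophages. Dendritic epidermal T cells had 0 Tslp UMIs in each library. Mural and smooth muscle cells had 28.8, 9.61 and 8.21 CPM of Tslp, from 6, 5 and 1 UMIs.

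Csf1 (chromosome 3, 107741048 to 107760469, minus strand) was made by mast cells and by fibroblasts, whose library values overlapped. Mast cells had 210 (170 to 255), 391.7 (318 to 478) and 265 (218 to 319) CPM in alopecia, no alopecia and wild type, from 98, 97 and 112 UMIs at median depths of 1084, 1222 and 1396 UMIs. The alopecia value was past the line under no alopecia, at -0.90 (-1.32 to -0.48), where 13.1% of genes were, and the ratios to wild type were -0.34 (-0.75 to 0.06) for alopecia and 0.56 (0.16 to 0.97) for no alopecia. With each cell weighted alike, alopecia against no alopecia was -0.19, under the line, and in no alopecia 1 cell held 21 of the 97 UMIs. The share of mast cells with a Csf1 UMI ran another way, at 21.1%, 17.99% and 26.5%. Without cells that carried at least 3 T-cell receptor UMIs, 25.8%, 33.1% and 32.9% of mast cells, alopecia against no alopecia was -0.54 and alopecia against wild type turned to 0.16.

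Fibroblasts of the CD45-negative libraries had 193 (180 to 207), 282 (270 to 294) and 231 (213 to 250) CPM of Csf1. Alopecia was the lowest, at -0.26 (-0.41 to -0.11) against wild type and -0.55 (-0.67 to -0.43) against no alopecia, and neither was past the line. Fibroblast clusters 0, 4 and 18 had 165, 315 and 102 CPM in alopecia, 222, 428 and 147 CPM in no alopecia and 155, 367 and 122 CPM in wild type. No alopecia was thus the highest group in all 3 clusters, whereas alopecia lay below wild type in clusters 4 and 18 only. Fibroblasts found in the CD45-positive libraries had 283, 247 and 260 CPM, with ratios of 0.13 (-0.25 to 0.51) for alopecia and -0.07 (-0.42 to 0.28) for no alopecia against wild type, and 1 alopecia cell held 51 of 141 UMIs there. With that cell counted, the 2 sorts gave different orders of the groups, and the place of alopecia in the CD45-positive order rests in part on it.

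Blood endothelium, the next class of at least 100 cells in each library, did not overlap fibroblasts in Csf1. It had 31.8 (21.5 to 45.4), 136 (119 to 155) and 55.4 (40.0 to 74.9) CPM in alopecia, no alopecia and wild type. No alopecia was past the line over wild type, at 1.30 (0.82 to 1.81), where 11.6% of genes were, alopecia was past it under wild type, at -0.80 (-1.53 to -0.09), where 7.86% were, and under no alopecia, at -2.10 (-2.70 to -1.55), where 12% were. Without the highest cell of each library these were 1.43, -0.80 and -2.24, and a Csf1 UMI was seen in 6.95%, 17.8% and 11.7% of the cells. Less the melanocyte level, alopecia against wild type was -0.40, under the line.

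Lymphoid cells held some Csf1 too. In group 2 innate lymphoid cells it stood at 22.8, 3.52 and 24.4 CPM from 50, 3 and 39 UMIs in alopecia, no alopecia and wild type, of which the highest cell gave 15 in alopecia and 12 in wild type. The ratio of no alopecia to wild type was -2.79 (-5.13 to -1.14), where 15% of genes were past the line downward, and -1.26 without cells that carried at least 3 T-cell receptor UMIs. CD4 T cells had 31.5 (24.1 to 40.4), 14.2 (7.11 to 25.5) and 11.7 (8.42 to 15.9) CPM. Alopecia was past the line over wild type there, at 1.42 (0.83 to 2.03) from 61 against 41 UMIs, where 8.82% of genes were, and without the highest cells it was 1.40. Dermal gamma delta T cells of the same libraries had 1, 0 and 0 Csf1 UMIs.

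The cells that can read these signals were described by 12 receptor and decoy genes fixed as a list. Il7r was highest in dermal gamma delta T cells, at 1270, 1070 and 1054 CPM in alopecia, no alopecia and wild type. Group 2 innate lymphoid cells followed at 975, 934 and 828 CPM, and regulatory T cells at 1025, 736 and 675 CPM. In regulatory T cells Il7r was thus past the line in alopecia over wild type, where 7.65% of genes were. Il1rl1, the interleukin-33 receptor, belonged to regulatory T cells at 500, 540 and 623 CPM, and mast cells followed at 83.4, 64.6 and 92.3 CPM. Its ratio in regulatory T cells was -0.32 (-0.43 to -0.20) for alopecia against wild type, under the line.

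Il2rb, the chain that reads Il15, was at 980, 1373 and 1376 CPM in dendritic epidermal T cells, where alopecia lay under wild type by -0.49 (-0.60 to -0.38), again under the line. Il18r1 was at 465, 343 and 501 CPM in dermal gamma delta T cells and at 399, 335 and 458 CPM in group 2 innate lymphoid cells. The innate lymphoid cells also held Il18rap at 305, 369 and 307 CPM, and natural killer cells of the alopecia library at 570 CPM. Il15ra was at 28.8, 28.8 and 31.2 CPM in suprabasal and at 27.2, 34.4 and 23.1 CPM in basal keratinocytes, and Il18bp was highest in blood endothelium, at 18.04, 18.2 and 11.9 CPM.

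Csf1r, the receptor of Csf1 and Il34, was at 589, 526 and 349 CPM in macrophages, at 430, 301 and 300 CPM in Langerhans cells and at 210, 241 and 189 CPM in monocytes of alopecia, no alopecia and wild type. In macrophages alopecia was past the line over wild type, at 0.75 (0.60 to 0.91), where 15.6% of genes were, and no alopecia at 0.59 (0.36 to 0.82), where 9.85% were. In Langerhans cells alopecia over wild type was 0.52 (0.39 to 0.65), under the line. The share of macrophages with at least 3 T-cell receptor UMIs was lowest in alopecia, as given with Tslp, and its part in these ratios was not tested. Macrophage clusters 2, 10 and 16 held 302, 112 and 84 cells in alopecia, 57, 29 and 12 in no alopecia and 101, 114 and 13 in wild type. Csf1r was at 711, 543 and 395 CPM in cluster 2 and at 382, 320 and 240 CPM in cluster 10 of alopecia, no alopecia and wild type. In cluster 16 it was at 443, 795 and 736 CPM, so that alopecia was the lowest there. Over named classes with enough UMIs, the 12 receptor genes gave 122 CD45-positive ratios of alopecia against wild type, 9 upward and 29 downward, with a median of -0.22, where all genes gave 11.3% and 9.38%. No alopecia against wild type gave 105, 5 upward and 20 downward, median -0.07, where all genes gave 9.74% and 13.4%. Alopecia against no alopecia gave 107, 11 upward and 11 downward, median -0.07, where all genes gave 15.6% and 9.09%. In the CD45-negative libraries the receptor ratios were 4 upward and 5 downward of 42 for alopecia against wild type, where all genes gave 9.84% and 8.41%. They were 12 and 8 of 52 for no alopecia against wild type, where all genes gave 13% and 12.3%. For alopecia against no alopecia they were 7 and 14 of 59, where all genes gave 12% and 11.6%.

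**Figure D5:**
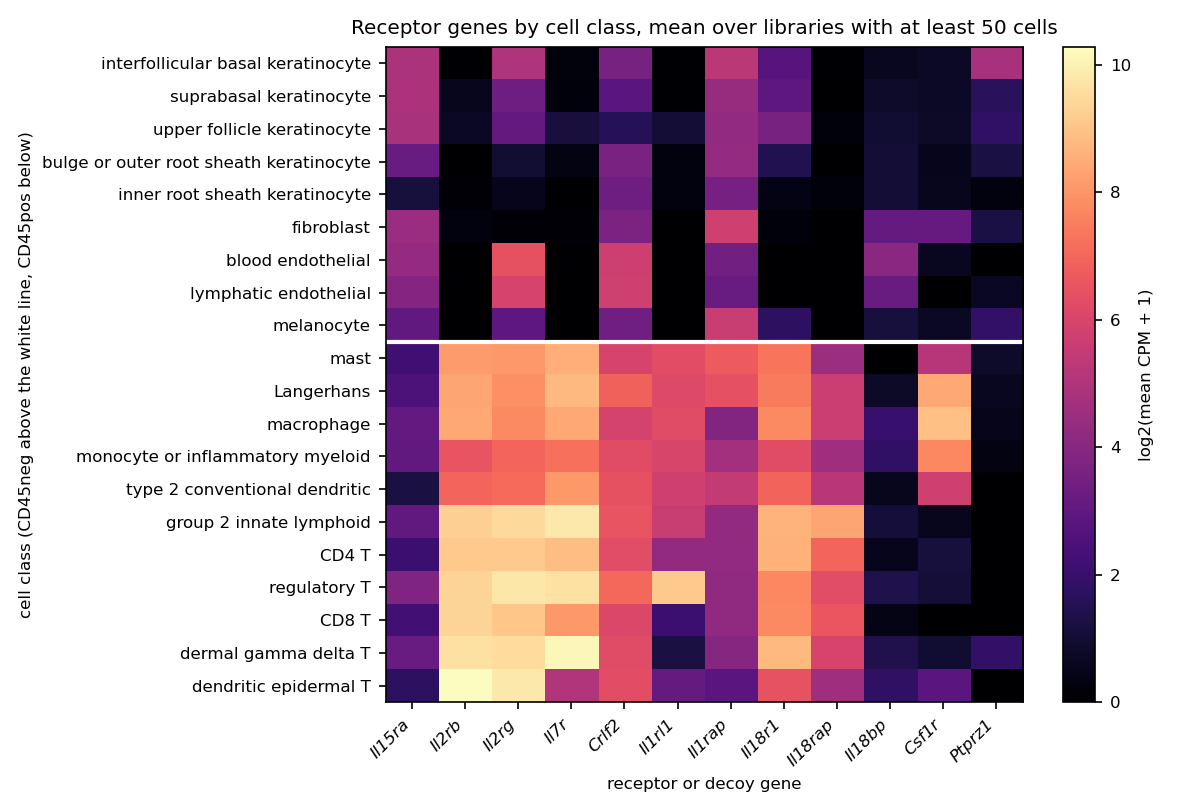
Receptor and decoy genes, as log2(mean CPM + 1) over the libraries with at least 50 cells of a class, CD45-negative classes above the white line and CD45-positive classes below it. Il7r is brightest in dermal gamma delta T cells, Il2rb in dendritic epidermal T cells, Il1rl1 in regulatory T cells and Csf1r in macrophages and Langerhans cells. Receptor genes of T cells also appear in mast, Langerhans and other myeloid classes, 14.3% to 67.2% of whose cells carried at least 3 T-cell receptor UMIs.

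Genes with a like pattern were searched over the 15 named classes of at least 100 cells in each library, among 10652 genes, by Pearson's r of log2(CPM + 1). These values describe shared classes only, and all classes of a sort share their libraries. For Il33 the closest were Il22ra2 (0.98), Wnt16 (0.98) and Skint11 (0.97), all high in basal and suprabasal keratinocytes. For Il34 they were Rab3d (0.96), Prxl2b (0.95) and Chl1 (0.94), and for Tslp Mef2a (0.91), Mmp28 (0.90) and Chmp3 (0.89). For Il7 they were Cygb (0.95), Aldh1a1 (0.91) and Aldh3a1 (0.88), in a comparison without lymphatic endothelium, which had too few cells. For Il18 they were Dnajb14 (0.93), Osbp2 (0.88) and Wdr91 (0.86), for Csf1 Pofut1 (0.87), Anks1 (0.83) and Vegfc (0.82), and for Il15 Dnmbp (0.76), Sema4a (0.71) and Tnfrsf11a (0.71).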

How the data were processed

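The authors deposited filtered gene-by-barcode matrices of raw UMI counts, 1 per library, made with Cell Ranger 7.1.0 and build mm10 per the submitters' processing notes. Barcodes with at least 500 UMIs, 300 genes and at most 10% mitochondrial UMIs were kept, and doublets were removed at 0.4% per 1000 barcodes from simulated doublet scores. Each sort was clustered over its 3 libraries with scanpy 1.11.5 and leidenalg 0.10.2 (2000 variable genes without the 7 cytokines, the 12 receptor genes and Il2ra, 30 components, 15 neighbours, resolution 1.0). Clusters were named from marker lists, and clusters that missed the naming rules stayed unnamed.

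Counts were summed per class and library and divided by the UMIs of the class. Ratios needed 20 cells in each library and 20 UMIs in the pair. The leading class of a gene had the highest mean level over the 3 libraries among named classes of at least 100 cells in each. Shares of cells with a UMI were also taken after thinning cells to 1000 UMIs. T-cell receptor UMIs are those of T-cell receptor complex genes. The text names the 7 cytokines, the 12 receptor and decoy genes and, for each cytokine, the 3 genes nearest in pattern among those reaching 20 CPM in 1 class. The members and lists were chosen with earlier results of these data known, and the pairs of gene and class shown outside the leading classes were chosen after their values were seen. edgeR 4.0.16 served only for the alternative scaling (TMM), and no test was run with it. The ratio script was checked on simulated counts. Coordinates are from GENCODE vM21 (GRCm38), which held 99.61% of the feature IDs, and promoters are from RefSeq. Ambient RNA was not removed.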

Additional observations from a re-analysis of the deposited data

How the results depend on the processing

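With 1 library per group and sort, no replicate could be left out, and all values carry counting error only. No paired analysis was possible because each group has a single library per sort. Leaving out the cell with most UMIs and taking off the melanocyte level were chosen after seeing the data. Of 222 leading-class ratios under an alternative, 204 stayed within their interval and 18 did not. The sign changed in 20, of which 1 was past the line as reported (Tslp). Of 595 other ratios 571 stayed within their interval, and the sign changed in 33, of which 5 were past the line as reported. Of 42 library levels with classes weighted alike, 24 moved by more than their counting error under wild-type class weights.

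Il34 in suprabasal keratinocytes became -0.085 for alopecia against wild type with classes from marker UMIs. For no alopecia against wild type it became -0.091 without cells carrying at least 3 T-cell receptor UMIs and -0.18 less melanocytes. For alopecia against no alopecia it became -0.067 with marker UMIs, -0.19 at resolution 2.0 and -0.17 less melanocytes. Il33 in basal keratinocytes became 0.73 for no alopecia against wild type and -0.65 for alopecia against no alopecia with no cell filter, and -0.26 and 0.13 less melanocytes. Tslp in basal keratinocytes became -1.95 for alopecia against wild type with cells weighted alike and -0.30 without the highest cell. For no alopecia against wild type it became -1.10 with no filter, -1.18 with marker UMIs, -0.84 with cells weighted alike, and turned to 1.05 without the highest cell. Csf1 in mast cells became 0.16 for alopecia against wild type without cells carrying T-cell receptor UMIs, and -0.19 for alopecia against no alopecia with cells weighted alike. Among the others, no alopecia against wild type, past the line as reported, turned for Il18 in type 2 dendritic cells (-0.030 without those cells) and monocytes (-0.28 with marker UMIs, -0.094 at resolution 2.0), and for Tslp in macrophages (-0.16 without those cells, -0.015 with cells weighted alike). Apart from the Tslp case, whose value rests on 1 cell, the cause was not tested.

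Of the 7 leading-class ratios, those past the line upward became 2 for alopecia against wild type at resolution 2.0 and with cells weighted alike. For no alopecia against wild type they became 2 with a 5% mitochondrial limit, no filter, no doublet removal, marker UMIs, TMM, no cells with T-cell receptor UMIs or no highest cell. For alopecia against no alopecia they became 1 with marker UMIs, resolution 2.0, cells weighted alike or no highest cell. Those downward became 0 for both groups against wild type without the highest cell, and 1 for alopecia against no alopecia with cells weighted alike or without cells carrying T-cell receptor UMIs. Il15 in group 2 innate lymphoid cells averaged 49.96 CPM with cells weighted alike, 26.07 with marker UMIs and 40.44 without the highest cell. The leading level of Il7 became 131.4 CPM, in lymphatic endothelium, with classes of at least 50 cells. Marker UMIs gave 274.8 CPM for Il34 and 73.46 for Il33. TMM moved the centre of all genes by more than 0.1 in 5 pairs of class and comparison, the farthest being monocytes in alopecia against no alopecia, at -0.124.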
